A study of Mus musculus with 6 samples.

Results

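Ribosomal proteins of the cytosolic ribosome were followed in the renal cortex of mice. Probes were taken by the gene name in the scanner file of labelled db/db replicate 1: a symbol made of Rpl, Rps or Rplp, a number and at most 1 further letter. This rule took 80 of the 37007 gene names that the file gives to the probes kept, and they were measured by 174 of 56470 probes. Total RNA from male mice aged 16 weeks, 3 in each group, was labelled with Cy3 and hybridised to one-colour Agilent arrays, with 1 array per mouse. In the labels, the genotype of a mouse is either db/m or db/db. The db/db mouse lacks a working leptin receptor on the C57BLKS/J background and becomes obese and diabetic, and db/m mice carry the mutation on 1 allele and serve as non-diabetic controls. The methods of the study instead describe db/db mice for both groups, treated or not treated with Huangqi decoction (HQD), a herbal extract, and a treatment of 8 weeks is stated with the labels of every array. The dose behind these arrays is not given in the sources used here. Both groups are therefore called by their label, and a difference stands for labelled db/m minus labelled db/db on the log2 scale. Genotype and treatment cannot be told apart in this comparison.

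The ribosome translates mRNA into protein. Its small subunit reads the mRNA, its large subunit joins the amino acids, and a stalk of acidic proteins (Rplp0, Rplp1, Rplp2) recruits the elongation factors. The mRNAs of ribosomal proteins begin with a terminal oligopyrimidine (TOP) tract, through which the kinase complex mTORC1 controls their translation, and they are among the most abundant mRNAs of most cells. Rodent genomes also hold many processed copies of these genes, so a probe can bind RNA of a copy as well.

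Of the 174 probes, 162 were well above background on every array of at least 1 group and were tested, for 77 of the 80 genes. Of the 12 that were not tested, 9 were not well above background on any of the 6 arrays. Among these were the only probes of Rpl10l and Rpl39l, copies known from the testis. The only probe of Rpl37 was well above background on 1 array of each group. The tested probes were bright, with 148 of 162 (91.4%) in the brightest 25% of all 29890 tested probes and 101 among the 1000 brightest, although brightness depends on the probe as well as on the RNA. A group of 64 tested probes, from 47 genes, was printed at 10 spots on each array. Their SD over the spots of an array had a median of 0.03 on the log2 scale, against a median SD of 0.13 between the arrays of a group. The spread between arrays was thus several times that between spots. All 14 proximal tubule markers, all 8 podocyte markers and all 11 markers of the thick limb and collecting duct were tested, that is, above background. So were all 8 endothelial markers, 13 of 15 immune cell markers and 29890 of all 56470 probes. Passing this filter could thus not check the tissue label.

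The probes on which the results turn are printed here from the scanner files, with positions in mm9 and G and C in capitals. The first 5 were lower in labelled db/m by the unadjusted test, and the last 2 are shown for comparison, since their differences lay near 0. A span longer than 60 bases means that the probe crosses an intron.
Rps2 A_55_P2070347, chr17:42864841-42864900, + strand: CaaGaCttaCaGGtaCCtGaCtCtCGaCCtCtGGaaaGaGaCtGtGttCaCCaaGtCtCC
Rps2 A_55_P2048454, chr17:24857583-24857642, + strand: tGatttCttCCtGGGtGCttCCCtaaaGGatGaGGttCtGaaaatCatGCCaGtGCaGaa
Rpl3 A_66_P126077, chr15:79912877-79912936, - strand: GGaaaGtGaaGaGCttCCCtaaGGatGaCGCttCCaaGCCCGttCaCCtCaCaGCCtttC
Rpl29 A_55_P2061045, chr9:106333554-106333613, + strand: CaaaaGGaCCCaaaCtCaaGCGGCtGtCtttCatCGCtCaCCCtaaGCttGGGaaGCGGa
Rps18 A_55_P2135632, chr17:34089041-34089202, - strand: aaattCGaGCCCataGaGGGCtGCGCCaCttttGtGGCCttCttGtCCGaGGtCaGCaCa
Rpl13a A_55_P2058953, chr7:52381388-52381529, - strand: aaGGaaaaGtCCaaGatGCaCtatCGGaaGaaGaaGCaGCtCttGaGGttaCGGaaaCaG
Rps24 A_55_P1993880, chr14:25311190-25312666, + strand: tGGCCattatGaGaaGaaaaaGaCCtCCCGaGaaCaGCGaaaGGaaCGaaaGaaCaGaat

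Ribosomal protein probes lay slightly lower in the arrays labelled db/m, by a median of -0.20 (quartiles -0.28 and -0.11), compared with -0.03 for all tested probes and -0.14 for the brightest 25% of them. The difference was below 0 in 145 of 162 probes (89.5%), where it was in 53.5% of all tested probes and in 76.7% of the brightest 25%. After quantile normalization the difference was below 0 in 90 of 162. The median there was -0.013, against -0.014 for all tested probes. A shift relative to all tested probes was thus not seen on that scale, so that it depends on the scaling. With an unadjusted p under 0.05 in limma, 26 probes of 21 genes were lower, where 10.8% of all tested probes were. That is 16.0% of the ribosomal protein probes and 15.1% of the brightest 25%. Only 1 probe, of Rps24, was higher, where 6.9% of all tested probes were. No probe passed a Benjamini-Hochberg adjusted p under 0.05 in limma, where 0% of all tested probes did. The methods' t-test likewise gave 0 after adjustment and 26 lower before it, where 11.2% of all tested probes were lower. None passed the screen of a 2-fold difference with an unadjusted p under 0.05, which 0.96% of all tested probes passed. The groups did not overlap in 56 of the 162 probes (34.6%), all of them with a difference below 0. They did not overlap in 24.1% of all tested probes (4894 of 7211 below 0) and in 29.6% of the brightest 25% (1970 of 2209 below 0).

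**Figure D1:**
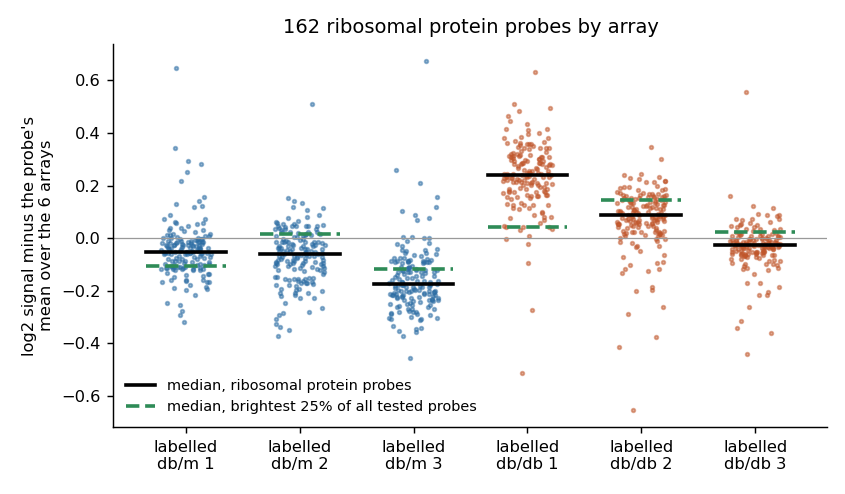
Log2 signal of each of the 162 ribosomal protein probes minus its mean over the 6 arrays, by array. Points are probes, black lines their medians and dashed lines the medians of the brightest 25% of all tested probes. The highest median, 0.24, belongs to labelled db/db replicate 1 and the lowest, -0.18, to labelled db/m replicate 3, on the scale of the 75th percentile; after quantile normalization the median difference between groups was -0.01.

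The arrays of a group differed among themselves. Relative to the mean of the 6 arrays, the median ribosomal protein probe lay at -0.05, -0.06 and -0.18 in labelled db/m replicates 1, 2 and 3. It lay at 0.24, 0.09 and -0.03 in labelled db/db replicates 1, 2 and 3. Labelled db/db replicate 1 thus stood highest, with 157 of 162 probes above their mean, and labelled db/db replicate 3 was the nearest of its group to the labelled db/m arrays, though still above all 3 of them. The brightest 25% of all tested probes had another order, with 0.04, 0.15 and 0.02 in labelled db/db and -0.10, 0.01 and -0.12 in labelled db/m. Without labelled db/db replicate 1, the median difference of the ribosomal protein probes was -0.13. Of them, 3 (1.83%) were then lower, where 5.57% of all tested probes were. Without labelled db/m replicate 3, 2 (1.23%) were lower, where 4.01% of all tested probes were. The count was 7 (4.32%, against 5.15%) without labelled db/db replicate 2 and 12 (7.32%, against 12.6%) without labelled db/m replicate 2. It was 23 (14.2%, against 7.52%) without labelled db/m replicate 1 and 57 (35.2%, against 13.1%) without labelled db/db replicate 3.

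The slides bear on the same comparison. Labelled db/m replicate 1 lay on the same slide as labelled db/db replicate 3, and the other slides of the 3 held arrays of 1 group each. Within the shared slide the median difference was -0.02 over the ribosomal protein probes, with 100 of 162 below 0. It was -0.04 over all tested probes, with 16362 of 29890 below 0. Over the brightest 25% of them it was -0.13, with 5278 of 7473 below 0. With the slide as a block, 0 ribosomal protein probes were lower, where 5.16% of all tested probes were. Only 1 was higher, where 1361 of 29890 were. The shared slide holds 1 array of each group, so that the slide cannot be told apart from single mice.

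**Figure D2:**
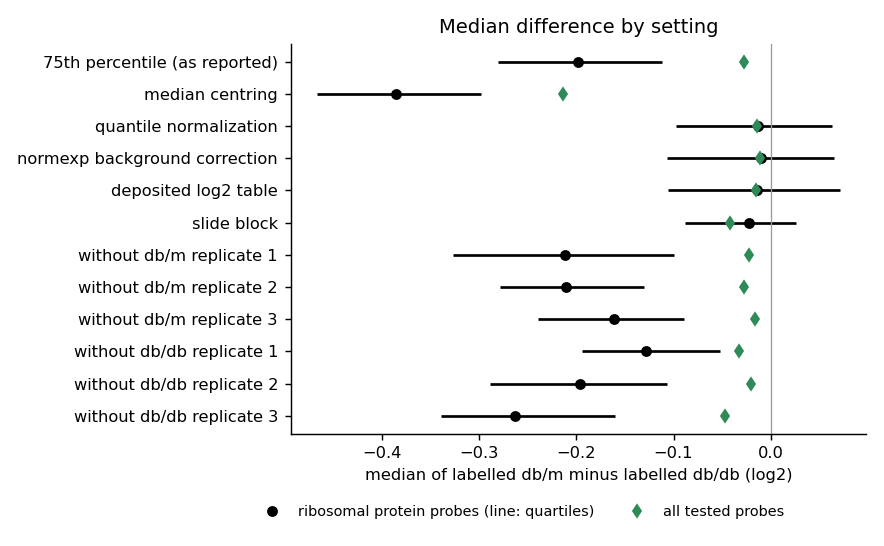
Median difference between the groups under each scaling, with the slide as a block and without each array. Dots are medians of the ribosomal protein probes, lines their quartiles, and diamonds medians of all tested probes. The medians run from -0.39 with median centring to -0.01 with normexp background correction, which was followed by quantile normalization. Under quantile normalization, normexp and the deposited table the dots and diamonds coincide.

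The 8 leading probes were those with the largest difference among the probes with an unadjusted p under 0.05 whose groups did not overlap, and all 8 were lower. Rps2, a small subunit protein near the mRNA entry site, was represented by 2 tested probes, and both were lower. At probe A_55_P2070347 the log2 signals, against the 75th percentile of the array, were 4.89, 4.68 and 4.53 in labelled db/m and 5.62, 5.22 and 4.995 in labelled db/db. The highest array of each group was replicate 1, and the groups did not overlap. The difference was -0.58 (SE 0.19, Benjamini-Hochberg adjusted p = 0.242 in limma, over all tested probes). This probe lies on chromosome 17 but more than 1 Mb from the other probes of the gene, and whether it reads a copy was not tested. The other tested probe, A_55_P2048454, gave 6.06, 6.02 and 5.81 in labelled db/m and 6.59, 6.36 and 6.20 in labelled db/db. Its difference was -0.42 (SE 0.14, limma adjusted p = 0.245). The groups did not overlap there either, and the order of the labelled db/db arrays was the same.

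Rps9, which also lines the path of the mRNA, had its largest difference at a dim probe, A_52_P564908. The signals were -1.11, -0.94 and -1.19 in labelled db/m and -0.35, -0.58 and -0.75 in labelled db/db, and the groups did not overlap. The difference was -0.52 (SE 0.14, limma adjusted p = 0.240). It was -0.56 after quantile normalization with an unadjusted p = 0.00594 in limma, which made it the only one of the 8 that stayed past the unadjusted threshold there. Rps18, a protein of the head of the small subunit and a common reference gene, gave 5.46, 5.16 and 5.15 in labelled db/m at probe A_55_P2135632. In labelled db/db it gave 5.99, 5.69 and 5.53, and the lowest of these lay just above the highest of labelled db/m. The difference was -0.48 (SE 0.16, limma adjusted p = 0.245). The other Rps18 probes had differences of -0.26 and -0.27 with unadjusted limma p-values of 0.0577 and 0.0746.

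Among large subunit proteins, Rpl3, which reaches towards the peptidyl transferase centre, gave 3.47, 3.11 and 3.12 in labelled db/m at probe A_66_P126077. In labelled db/db it gave 3.96, 3.66 and 3.55, with a difference of -0.49 (SE 0.16, limma adjusted p = 0.244). Replicate 1 was again the highest array of each group. Rpl29, a small protein of the large subunit, gave 5.63, 5.63 and 5.48 in labelled db/m at probe A_55_P2061045. In labelled db/db it gave 6.14, 6.02 and 5.84, for a difference of -0.42 (SE 0.12, limma adjusted p = 0.240). Rpl29, Rpl15 and Rps2 were the genes with several tested probes in which every one was lower at an unadjusted p under 0.05.

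Rpl15, another large subunit protein, gave 5.84, 5.76 and 5.66 in labelled db/m at probe A_55_P1990457 and 6.33, 6.19 and 5.93 in labelled db/db. Its difference was -0.40 (SE 0.14, limma adjusted p = 0.246). Rpl10a, the protein of the mobile L1 stalk by which the deacylated tRNA leaves, gave 7.38, 7.27 and 7.10 in labelled db/m at probe A_55_P2101906. In labelled db/db it gave 7.79, 7.58 and 7.53, for a difference of -0.38 (SE 0.13, limma adjusted p = 0.245). The groups did not overlap for either gene. All 8 differences kept their sign under quantile normalization, but 7 of them no longer had an unadjusted p under 0.05 in limma. With the slide as a block, 8 no longer had one. Their sign there was fixed in advance, since the probes were chosen for groups that did not overlap.

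**Figure D3:**
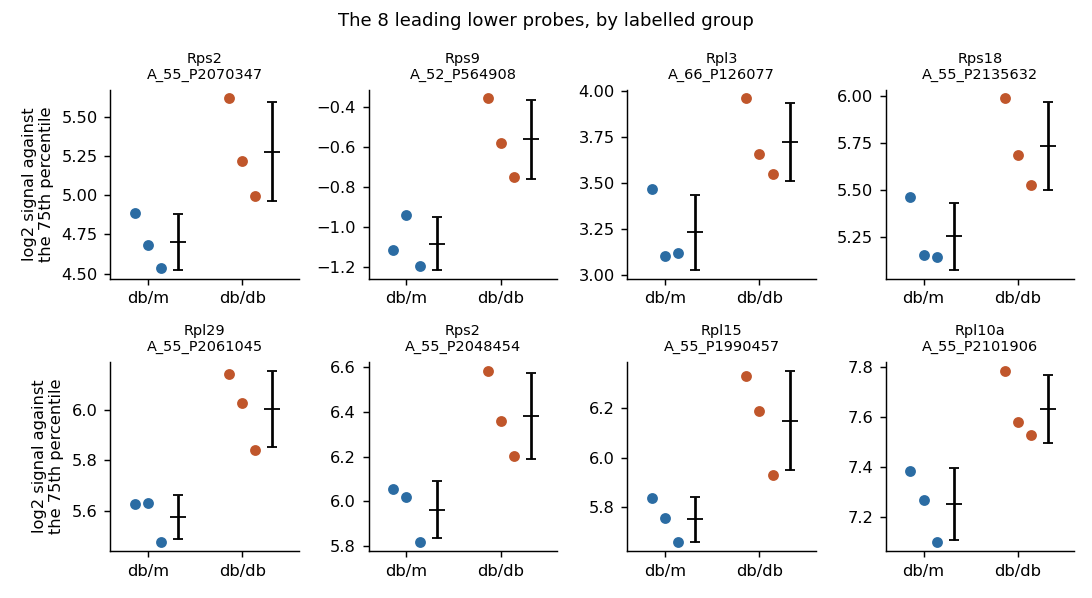
Log2 signal against the 75th percentile of each array for the 8 leading probes. Points are arrays in the order of replicates 1, 2 and 3, and bars are the group mean with SD (n = 3). In every panel the labelled db/db arrays lie above the labelled db/m arrays and labelled db/db replicate 1 is the highest; on this scale the differences run from -0.58 to -0.38, and after quantile normalization from -0.56 to -0.20.

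The subunits had like medians. The median difference was -0.20 over 91 large subunit probes and -0.20 over 62 small subunit probes, of which 16 and 9 were lower. Over the 5 stalk probes it was -0.12, and 1 was lower. All 5 were below 0, although Rplp0, Rplp2 and 1 probe of Rplp1 turned above 0 under quantile normalization, at 0.06, 0.06 and 0.14. Rplp0, the core of the stalk, gave 7.24, 7.23 and 6.97 in labelled db/m and 7.30, 7.22 and 7.27 in labelled db/db, which overlap. The Rplp2 probe differed by -0.11, and its groups also overlapped.

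Rplp1 showed how far probes of a gene can part. Its probe A_55_P1995126 gave 7.80, 8.06 and 7.88 in labelled db/m and 7.95, 7.90 and 7.93 in labelled db/db, for a difference of -0.01. Its probe A_55_P2933544 gave 6.30, 6.34 and 6.13 in labelled db/m and 6.74, 6.57 and 6.40 in labelled db/db, for a difference of -0.31 (SE 0.13, limma adjusted p = 0.281). The first probe overlapped between the groups and the second did not, with 35% and 55% of G and C bases. The third probe, A_55_P2155826, with 55% as well, differed by -0.23.

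Other members with a particular role or use varied likewise. Rps6, the substrate of the S6 kinases downstream of mTORC1, had differences of -0.27 and -0.24 at its 2 probes, with unadjusted limma p-values of 0.0816 and 0.112. Rps27a, which is made as a fusion with ubiquitin, had a difference of -0.18 with overlapping groups at its tested probe. Rpl13a, a common reference gene, gave 6.83, 6.88 and 6.77 in labelled db/m and 6.92, 6.70 and 6.85 in labelled db/db. Its difference was 0.00 (SE 0.11) on this scale but 0.19 after quantile normalization and -0.19 with median centring, so that its direction follows the scaling.

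The divergent copies were measured with more spread. Rps27l, a paralogue induced by p53, had differences of -0.13 and -0.16 at its 2 probes, and its groups overlapped at both. After quantile normalization these were 0.05 and 0.02. Rps4l had a difference of 0.25 with overlapping groups. Rpl3l, a paralogue known from muscle, was well above background on 2 of the labelled db/m arrays and on all 3 of labelled db/db and had a difference of -0.20. None of these 4 probes had an unadjusted p under 0.05.

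Rps24, a small subunit protein whose mRNA is spliced in several forms at the end of its coding sequence, held the only higher probe. At A_55_P1955243 the signals were 5.82, 4.84 and 5.84 in labelled db/m and 4.90, 4.80 and 4.83 in labelled db/db. Labelled db/m replicates 1 and 3 were thus high, whereas replicate 2 lay within the range of labelled db/db, and the groups overlapped. The difference was 0.66 (SE 0.27, limma adjusted p = 0.279), which became 0.99 on leaving out labelled db/m replicate 2 and 0.99 within the shared slide. Leaving out labelled db/m replicate 1 gave 0.50 and leaving out replicate 3 gave 0.49, with unadjusted limma p-values of 0.137 and 0.143. The direction was the same under each scaling tried, from 0.47 with median centring to 0.86 with normexp background correction. This probe was printed at a single spot, so no spread over spots is known.

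The other Rps24 probes did not share this pattern. A_55_P1993880 gave 5.70, 5.61 and 5.49 in labelled db/m and 5.54, 5.37 and 5.69 in labelled db/db, and A_55_P2032600 differed by 0.03. The dim probe A_52_P100002 gave -0.06, -0.69 and -0.14 in labelled db/m and -0.09, -0.67 and -0.76 in labelled db/db. Labelled db/m replicates 1 and 3 lay above replicate 2 there too, but so did labelled db/db replicate 1, and the difference of 0.21 had an unadjusted limma p of 0.411. The scanner file pairs the higher probe with 1 curated RefSeq transcript of the gene and pairs each of A_55_P1993880 and A_55_P2032600 with the same 3 curated transcripts. The first 30 bases of the higher probe and of A_55_P2032600 are given to show that they do not overlap, with positions in mm9 on the + strand of chromosome 14. The comparison of these probes was chosen after their values were seen.
Rps24 A_55_P1955243, chr14:25312695-25315015: aatgttggtgctggcaaaaagtgagtggag
Rps24 A_55_P2032600, chr14:25315021-25315080: ttgatgttttgctgtgatgtgcagatttct

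**Figure D4:**
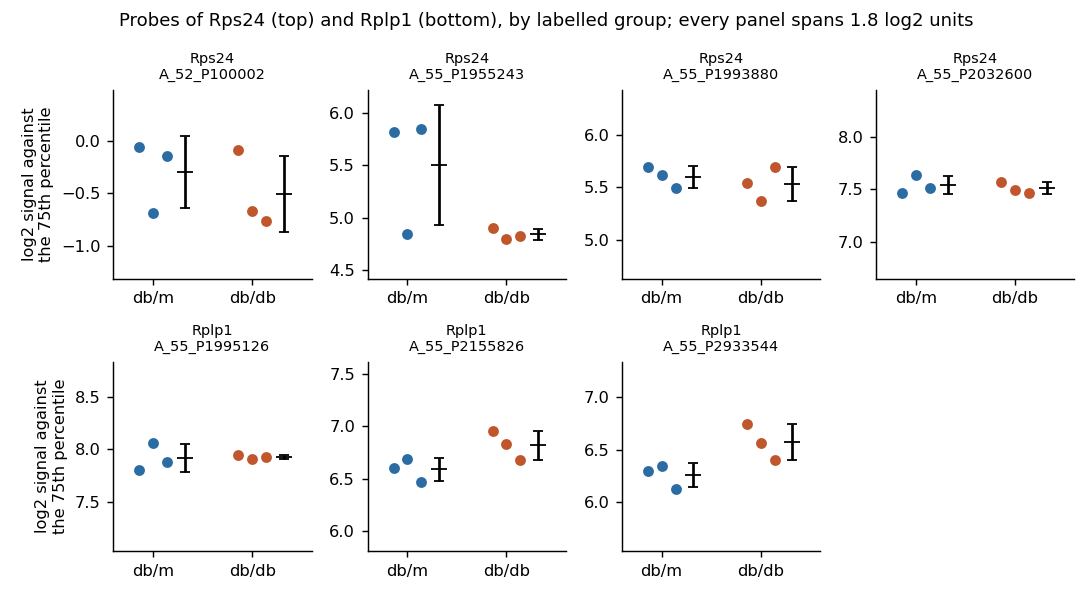
Log2 signal against the 75th percentile of each array for the tested probes of Rps24 (upper row) and Rplp1 (lower row). Points are arrays in the order of replicates 1, 2 and 3, bars are the group mean with SD (n = 3), and every panel spans the same range of log2 units. Only A_55_P1955243 has a pair of labelled db/m arrays near 5.8 above all others; under every scaling tried its difference was above 0.

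Probes of the same gene disagreed in other members as well. Of 56 genes with several tested probes, 45 had all of them below 0, 1 (Rps24) had all above 0 and 10 had probes on both sides. No gene had probes that passed an unadjusted p under 0.05 in both directions. The median range over the probes of a gene was 0.14, and it was 0.70 in Rpl7. Rpl7, a large subunit protein, had differences of -0.29 and -0.28 at its brighter probes and of 0.41 at the dimmer A_66_P120023. That probe gave 1.26, 1.82 and 1.47 in labelled db/m and 0.80, 0.66 and 1.87 in labelled db/db, so that labelled db/db replicate 3 was the highest array. In Rpl7a, another large subunit protein, probe A_55_P2796325 was lower, at -0.38, while A_55_P2001347 differed by 0.08.

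The rule did not use the base composition or the place of a probe, and the differences varied with both the composition and the brightness. The 148 probes in the brightest 25% had a median of -0.20, with 140 below 0. The 14 dimmer ones had a median of 0.13, with 5 below 0 and 9 above. Over the 162 probes, the difference was lower at probes with a larger share of G and C bases, with a Spearman rho of -0.54. This correlation runs across probes of the same arrays, which share their RNA and scaling. The median difference was -0.08 over the 31 probes with at most 40% G and C, -0.19 over the 89 with more than 40% and up to 50%, and -0.27 over the 42 with more than 50%. The brightest 25% without the ribosomal protein probes had medians of -0.07, -0.17 and -0.24 in the same bins and a rho of -0.32. Of the 49 genes with tested probes of unequal composition, 36 had the lower difference at the probe richest in G and C. The rho was -0.52 after quantile normalization and -0.29 once slides were blocked. The part of base composition in the differences was not tested.

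**Figure D5:**
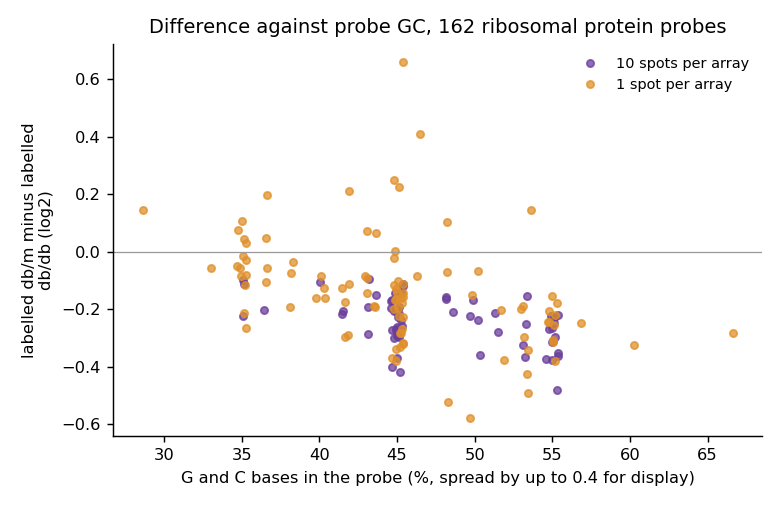
Difference between the groups (labelled db/m minus labelled db/db, log2, scaled to the 75th percentile) against the percentage of G and C bases in each of the 162 tested ribosomal protein probes. Probes with 10 spots per array and with 1 spot are coloured apart; the points run downward to the right, with a Spearman rho of -0.54, and the same rho was -0.52 after quantile normalization, where the median difference was -0.01.

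The number of spots went along with the difference too. The 64 probes with 10 spots were all below 0, with a median of -0.23 and 13 lower, and the 98 with 1 spot had a median of -0.16 with 13 lower. All 14 probes outside the brightest 25% were among those with 1 spot. The median log2 signal was nevertheless 6.22 over the probes with 10 spots and 6.35 over those with 1 spot. In mm9, 7 probes lie on another chromosome than the RefSeq table gives for the gene, and 1 lies more than 1 Mb from the other probes of its gene. These were 3 probes of Rps29, 2 of Rps27 and 1 each of Rpl13, Rpl36 and Rps2, and the tested probes of Rps29 and Rps27 all lay elsewhere. Without these 8, 24 of 154 probes were lower and the median was -0.20.

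The other genes of the translation machinery were counted from their brightest tested probe. Over all 18680 genes, 9.64% were lower and 6.33% were higher at an unadjusted p under 0.05, and the median difference was -0.03. Among the brightest 25% of all tested probes, 15.1% were lower and the median difference was -0.14. Their median log2 signal was 3.56, that of all tested probes -0.24, that of the initiation factors 4.16 and that of the TOP mRNAs below 5.34. Of 36 initiation factors, 5 were lower and 0 higher, with a median of -0.18. They included Eif3i, a subunit of the scaffold that binds the small subunit, at -0.57, and Eif6, which keeps free large subunits apart from small ones, at -0.49. Of 10 elongation and termination factors, 0 were lower and 1 was higher: Eef2k, the kinase that inhibits elongation factor 2, at 0.46. Of 18 TOP mRNAs outside the naming rule, 3 were lower and 0 higher, and Pabpc1, the poly(A)-binding protein, had the largest difference at -0.32. The lists share genes: the other lower TOP mRNAs, Eif3f and Eif4b, were counted among the initiation factors as well.

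The machinery that makes ribosomes was counted likewise. Of 15 genes for RNA polymerase I and transcription of ribosomal DNA, 3 were lower (Polr1e, Polr1b and Polr1c), with a median of -0.14. Of 44 assembly factors, 7 were lower and 1, Nop58, was higher, with a median of -0.10. The lower ones included the nucleolar proteins Nop16 at -0.43 and Ncl (nucleolin) at -0.34. Of 15 genes of mTORC1 and S6 kinase, 2 were lower: Rps6kb2, an S6 kinase, at -0.55 and Deptor, an inhibitor within the mTOR complexes, at -0.31. Of 78 mitochondrial ribosomal proteins, which belong to another ribosome, 11 were lower and 0 higher. Their median of -0.17 lay between that of the cytosolic ones and the -0.14 of the brightest 25% of all tested probes. Of 13 reference genes outside the ribosome, 3 were lower and 0 higher, with a median of -0.17. Of 6 ribosomal proteins outside the naming rule, 2 were lower, Rpl22l1 at -0.36 and Rpl7l1 at -0.27. No gene of these lists passed an adjusted p under 0.05 in limma.

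Markers of cell types differed between the groups to unlike degrees. All 13 tested immune cell markers were above 0, with a median of 0.55, and 5 of them were higher. Their mean log2 signal ran from 0.10 to 0.57 over the arrays labelled db/m and from -0.55 to 0.08 over those labelled db/db. Of 14 proximal tubule markers, 13 were below 0 and 2 were lower, with a median of -0.33. Their mean ran from 6.68 to 7.38 in labelled db/m and from 7.29 to 7.44 in labelled db/db, which overlap. Below 0 were 3 of 8 endothelial markers, 7 of 8 podocyte markers, 7 of 11 thick limb and collecting duct markers and 3 of 4 blood markers. No endothelial, podocyte or blood marker had an unadjusted p under 0.05 in limma. Of the thick limb and collecting duct markers, 2 were lower and 0 higher, with differences from -0.91 to 0.48 over the list. In cortex as a whole, fewer cells of a type and less RNA per cell cannot be told apart, and the part of cell types in the ribosomal protein values was not tested.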

How the data were processed

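The authors deposited, per array, scanner files with the intensity of each spot from Agilent Feature Extraction 10.7.1.1 (named in the submitters' processing notes), after background subtraction and without scaling between arrays, and a table of log2 values that all share 1 distribution, as quantile normalization leaves them. Positions are mm9, per the file headers. Tests used R 4.3.3 and limma 3.58.1 on the log2 intensity. Control spots and outlier-flagged spots were left out, spots of a probe were averaged, and each array was set against its own 75th percentile. Probes entered the test when well above background on every array of a group, by lmFit and eBayes, with Benjamini-Hochberg adjustment over all 29890 probes. The procedure was tested on simulated data. Precision is limited by the number of arrays: an exact two-sided permutation test of 3 against 3 cannot give a p below 0.1.

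The members, gene lists and tests were chosen with earlier results of these data known. Probes were named when among the 8 largest differences in each direction with an unadjusted p under 0.05 and groups that did not overlap, or when they belong to Rplp0, Rplp1, Rplp2, Rps6, Rps27a, Rpl13a, Rps18 or a divergent copy. Rps24 and Rpl7 were added after their values were seen, as was Rpl7a. Of each listed gene, up to 3 with an unadjusted p under 0.05 were named. Names came from the file of labelled db/db replicate 1, since that of labelled db/m replicate 1 held 71 other names, and symbols for the lists from the RefSeq table (GRCm38.p6), to which 32903 probes matched by accession. Alternatives covered scaling, background, filters, the test, the replicate block, the slide and each array. The normexp background correction was followed by quantile normalization, so it does not show the effect of background correction alone. The methods' t-test is the equal-variance form of the one-way ANOVA that the study names.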

Additional observations from a re-analysis of the deposited data

How the results depend on the processing

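The 26 lower probes were the count most open to the processing. It was 2 after quantile normalization, 64 with median centring, 1 with normexp background correction, 2 in the deposited table, 10 with no filter on dim probes, 43 with trend and robust variance and 0 with the slide as a block. In that order, the lower shares of the ribosomal protein probes were 1.23%, 39.5%, 0.62%, 1.23%, 5.75%, 26.5% and 0%. The lower shares of all tested probes were 10.5%, 19.3%, 10.1%, 10.5%, 4.27%, 12.3% and 5.16%. Median centring moved the median of all tested probes to -0.21. Relative to that median the ribosomal protein probes lay at -0.17 on both scales, which is fixed, since each scale subtracts a single value per array. Relative to all tested probes they lay at 0.0013 after quantile normalization, 0.0014 with normexp and 0.0005 in the deposited table. The normexp values were quantile normalized as well, and the deposited values share 1 distribution. Without single arrays the count ran from 2 (1.23%, where 4.01% of all tested probes were lower) to 57 (35.2%, where 13.1% were). The 1 higher probe became 2 after quantile normalization, 0 with median centring, 2 with normexp, 3 in the deposited table and 0 by the methods' t-test, and 0 to 2 without single arrays. Of all 29890 tested probes, 1543, 904, 1633, 1541 and 1280 were higher in the first 5 of these, in that order. The median of -0.20 became -0.013 after quantile normalization, -0.39 with median centring, -0.0099 with normexp, -0.014 in the deposited table and -0.023 with the slide as a block, and ran from -0.26 to -0.13 without single arrays. Past the adjusted threshold, the count of 0 ran from 0 to 1 without single arrays, and that 1 came without labelled db/m replicate 2, where 222 of all tested probes passed.

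With the replicate number as a block, 45 probes (27.8%) were lower, where 13.6% of all tested probes were. Only 1 was higher, where 2496 of 29890 were. The numbers are not shown to pair the mice, since same-numbered arrays correlated at 0.35, 0.15 and 0.05. Over all tested probes, the lower count of 3221 ran from 1203 to 5773 over all alternatives and the higher count of 2061 from 904 to 3413. The cause of these changes was not tested. No direction of the 8 leading probes reversed in any alternative. Since they were chosen for groups that did not overlap, only another scaling or background correction could have reversed one.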
